A study of Mus musculus with 11 samples.

Results

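The miR-99/100 and miR-125 families are small groups of miRNAs that are made from the same primary transcripts as let-7 members. The data were small RNA libraries from the brain of male Balb/cOlaHsd mice with an age of 3 months by their labels, and all brains were perfused. Tissue was collected 3 days after permanent occlusion of the left middle cerebral artery (pMCAO, n = 5) or after sham surgery (n = 6), in which the artery was exposed and lifted but not occluded. The pMCAO tissue is labelled as peri-ischemic cortex, the region that surrounds the ischemic core, and the sham tissue as cortex, so any difference in the piece that was dissected cannot be told apart from the operation. Both groups carry the word vehicle in the deposited names of their libraries, which the labels do not mention. The question was whether these miRNAs change with the occlusion.

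The members were picked by name, by a rule with no threshold on the measured values, and they were 7 of the 1907 mature miRNAs listed in each library. They were mmu-miR-99a-5p, mmu-miR-99b-5p, mmu-miR-99b-3p, mmu-miR-100-5p, mmu-miR-125a-5p, mmu-miR-125a-3p and mmu-miR-125b-5p, the species prefix of which is left out below, and 7 of the 7 passed the filter on low counts that left 479 miRNAs for the test.

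A miRNA hairpin is cut by Dicer into 2 arms, and the arm loaded on an Argonaute protein pairs with target mRNAs mainly through its seed, here bases 2 to 8 from the 5′ end. The miR-125 family is the vertebrate counterpart of worm lin-4, and together with let-7 it is known for developmental timing and neuronal differentiation. The miR-99/100 family is an old animal family that is known to target Mtor, the kinase of a growth pathway. In the brain, miR-125b-5p is known as an abundant miRNA of neurons and astrocytes.

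The mature sequences below, from RefSeq on GRCm38.p6, are shown because they define the families and because some of them are hard to tell apart by reads. Capitals mark the seed.

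miR-99a-5p: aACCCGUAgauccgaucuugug
miR-100-5p: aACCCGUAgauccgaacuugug
miR-99b-5p: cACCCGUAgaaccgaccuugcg
miR-125b-5p: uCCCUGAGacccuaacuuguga
miR-125a-5p: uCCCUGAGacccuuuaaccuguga
miR-99b-3p: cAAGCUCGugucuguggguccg
miR-125a-3p: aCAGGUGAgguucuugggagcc

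The 3 miR-99/100 products shared the seed ACCCGUA, and no other miRNA of the RefSeq table had it. miR-99a-5p and miR-100-5p differed at 1 of their 22 bases, U16A, counted from the 5′ end of miR-99a-5p. miR-99b-5p differed from miR-99a-5p at 4 bases, A1C, U11A, U16C and U21C. miR-125b-5p and miR-125a-5p had the seed CCCUGAG, the first 13 bases and the last 5 bases in common, and were 22 and 24 bases long. The same seed was found in miR-351-5p, miR-6367 and miR-6394, of which miR-351-5p alone was abundant enough to be tested. Among the 3p arms, miR-99b-3p shared its seed with miR-99a-3p, whereas the seed of miR-125a-3p was not found in any other mature sequence of the table.

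The hairpins lay in 3 groups on the plus strand of the mouse genome (mm10, GENCODE annotation of GRCm38). On chromosome 17, Mir99b (chr17:17830188-17830257), Mirlet7e (chr17:17830352-17830444) and Mir125a (chr17:17830812-17830879) lay within 692 bases inside the protein-coding gene Spaca6. Mir99b and Mirlet7e were intronic in it, and Mir125a overlapped an exon of a Spaca6 transcript. On chromosome 16, Mir99a (chr16:77598936-77599000), Mirlet7c-1 (chr16:77599657-77599750) and Mir125b-2 (chr16:77646273-77646343) were spread over 47408 bases in introns of the non-coding host gene Mir99ahg. On chromosome 9, Mir100 (chr9:41531425-41531504), Mirlet7a-2 (chr9:41536716-41536811) and Mir125b-1 (chr9:41581926-41582002) were spread over 50578 bases in introns of the non-coding transcripts 3110039I08Rik and Gm49317. Mir100 also overlapped an exon of the antisense transcript Gm48742, and Mir125b-1 an exon of the sense intronic transcript Gm28119.

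Hence each group held 1 hairpin of the miR-99/100 family, 1 of the let-7 family and 1 of the miR-125 family. The mature miR-125b-5p is identical from chromosomes 9 and 16, so its counts cannot be divided between these loci, although the 3p arms of the 2 hairpins differ and are counted separately. let-7c-5p is likewise listed at a further locus, on chromosome 15. The table lists let-7a-5p at Mirlet7a-1 on chromosome 13 and not at Mirlet7a-2, so its place among the products of the chromosome 9 transcript rests on the annotated hairpin, and how much of its count came from there cannot be told apart. How reads that match more than 1 miRNA were assigned is not given in the sources used here, which bears most on miR-99a-5p and miR-100-5p.

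The libraries held 1429037 to 2319810 counts in sham and 744877 to 1411620 in pMCAO, so every sham library was deeper. No 2 libraries of a group agreed within sampling noise, as the chi-square per degree of freedom was at least 20.4. Levels are given as CPM, counts scaled to 1000000 per library after edgeR's TMM correction, whose factor averaged 0.948 ± 0.0601 over the 6 sham and 1.07 ± 0.0454 over the 5 pMCAO libraries (mean ± SD). Differences are log2 fold changes of pMCAO over sham with a standard error (SE) and a 95% interval. They come from the quasi-likelihood test of edgeR, with p-values adjusted by Benjamini and Hochberg's method over the 479 miRNAs, and a change was called at an adjusted p under 0.05.

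Among the neuron markers, miR-124-3p, miR-9-5p, miR-128-3p, miR-138-5p and miR-132-3p, 5 of 5 were tested and present, with miR-124-3p the most abundant miRNA of the sham libraries. Their summed level was 323613 to 411419 CPM in sham and 276422 to 326344 CPM in pMCAO, and 1 of 5, miR-132-3p, fell. Of 3 oligodendrocyte markers 1 fell, miR-338-3p, with summed levels of 4287 to 5244 CPM in sham and 2530 to 4955 CPM in pMCAO. Of 4 myeloid markers (miR-223-3p, miR-142a-3p, miR-142a-5p and miR-155-5p) 4 rose, with a median log2 fold change of 1.93 and summed levels of 279 to 698 CPM in sham against 751 to 3762 CPM in pMCAO. Of 4 markers of mural cells and fibroblasts 1 rose, miR-214-3p, which was scarce in sham (mean 22.1 CPM). The others did not pass, with log2 fold changes of 1.06 for miR-199a-3p, -0.04 for miR-143-3p and -0.22 for miR-145a-5p. The summed level of this list was 6829 to 11479 CPM in sham and 6334 to 8695 CPM in pMCAO. None of 2 endothelial markers or of the 2 tested erythrocyte markers passed the test. The 4 myeloid calls held in every alternative that could be fitted, while miR-132-3p passed in 7 of 22, miR-338-3p in 4 of 22 and miR-214-3p in 15 of 22, with miR-132-3p and miR-338-3p not passing when libraries were scaled by total counts alone. The call of miR-155-5p has a limit, as it had 3 to 9 counts per sham library and 13 to 53 per pMCAO library. It thus passed the filter (minimum count 10) through the pMCAO libraries alone. Its fold change, which enters the median of 1.93, rests on very low sham counts, and it could be fitted in 20 of 22 alternatives. The erythrocyte sum ran from 48.6 to 5332 CPM in sham and from 637 to 4700 CPM in pMCAO. Most of it was miR-451a, whose high sham value came from replicate 1 alone (5115 CPM). In the other sham libraries miR-451a was at 42.7 to 252 CPM, and in pMCAO at 620 to 4465 CPM. No marker was at 0 throughout. The part of these shifts in the values below was not tested, and in bulk tissue fewer cells of a type and less RNA per cell cannot be told apart.

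None of the 7 members passed the test in either direction (0 of 7 by edgeR and 0 of 7 by DESeq2), against 34 of the 479 miRNAs tested, which is 7.1% (21 or 4.38% higher and 13 or 2.71% lower, against 43 higher and 1 lower when libraries were scaled by total counts alone). Among the 120 most abundant of the miRNAs tested, 10 passed (8.33%). The CPM values of the groups overlapped for 7 of 7 members, whereas they did not overlap for 7.52% of the miRNAs tested. At an unadjusted p under 0.05 there were 2 members by edgeR, miR-125b-5p and miR-99b-3p, and 1 by DESeq2, miR-125b-5p, whereas 24.4% of all miRNAs tested had an unadjusted p under 0.05 by edgeR. The log2 fold change was below 0 for 5 of 7 members, all products of a 5p arm, and above 0 for both 3p products, beside 49.7% below 0 among all miRNAs tested. The median over the members was -0.12, and over all 479 miRNAs it was 0.0015. Scaling by total counts alone moved the median of all miRNAs to 0.18 and that of the members to 0.05, so that 1 of 7 members was then below 0, while 5 of 7 were still below the median of all miRNAs.

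**Figure D1:**
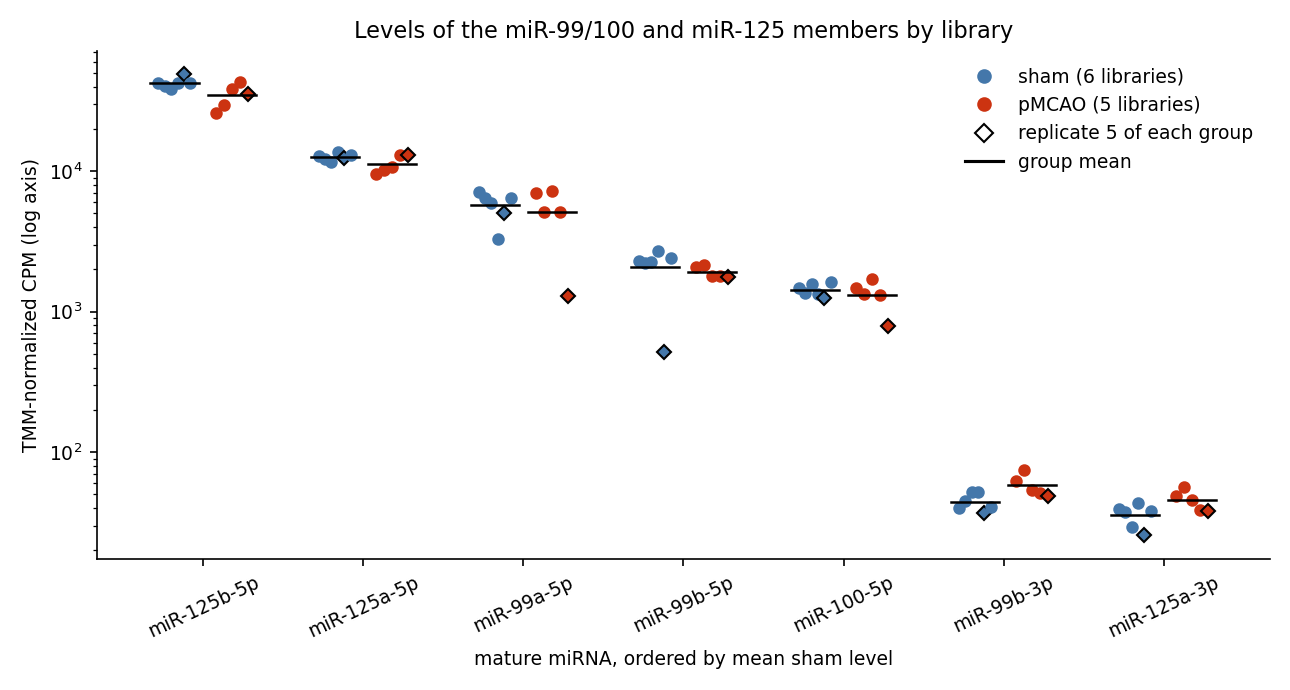
TMM-normalized CPM on a log axis for each member, with 1 point for each of the 6 sham (blue) and 5 pMCAO (red) libraries, diamonds for replicate 5 of each group and bars for the group mean. The groups overlapped for each of the 7 members, and the lone low points are miR-99b-5p in sham replicate 5 (516 CPM) and miR-99a-5p in pMCAO replicate 5 (1287 CPM).

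The order of the levels was the same in both groups, with miR-125b-5p first, then miR-125a-5p, miR-99a-5p, miR-99b-5p, miR-100-5p, miR-99b-3p and miR-125a-3p. By mean CPM over the 1907 names, miR-125b-5p ranked 5 in sham and 6 in pMCAO, and miR-125a-5p ranked 13 and 12. In sham, miR-125b-5p was 3.38 times as abundant as miR-125a-5p, and the 3 highest members kept their order in 6 of 6 libraries without overlap. The sham ranges of miR-99b-5p and miR-100-5p overlapped (order kept in 5 of 6 libraries), and so did those of miR-99b-3p and miR-125a-3p, although their order was kept in 6 of 6. In pMCAO the ranges of miR-99a-5p and miR-99b-5p overlapped (order kept in 4 of 5), as did those of both 3p products. miR-99b-5p and miR-100-5p did not overlap in pMCAO (order kept in 5 of 5), and miR-99b-3p was above miR-125a-3p in 5 of 5 pMCAO libraries too.

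Together, miR-125a-5p and miR-125b-5p made up 5.26% ± 0.606 of a sham library (mean ± SD of 6) and 4.90% ± 0.814 of a pMCAO library (mean ± SD of 5). miR-99a-5p, miR-99b-5p and miR-100-5p together made up 0.872% ± 0.170 and 0.890% ± 0.281. Within the miR-125 pair, miR-125b-5p accounted for 77.1% ± 1.40 in sham and 75.1% ± 2.26 in pMCAO. Within the miR-99/100 trio, miR-99a-5p accounted for 61.8% ± 9.67 in sham and 57.8% ± 13.9 in pMCAO. The make-up of the trio thus varied far more between libraries than that of the pair, and a few libraries set most of this spread. The lowest and highest sham shares, 44.6% and 74.2%, were those of replicates 4 and 5, and the lowest pMCAO share, 33.5%, was that of replicate 5. These shares are given as a description with no test.

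miR-125b-5p, the most abundant member, ranged in sham from 38451 to 49314 CPM with a median of 42643. In pMCAO replicates 1 to 5 it was 26157, 29672, 38569, 42927 and 35575 CPM. In 3 pMCAO libraries the level lay below the whole sham range and in the other 2 within it, so the groups overlapped. The log2 fold change was -0.31 (SE 0.12, 95% interval -0.57 to -0.04), a level 19.1% lower in pMCAO, with an unadjusted p of 0.0268 and an adjusted p of 0.148 by edgeR. The 2 lowest values came from the 2 pMCAO libraries with fewer than 1000000 counts, and without both the log2 fold change was -0.10. A library held at least 23255 counts of miR-125b-5p, a counting error of at most 0.656%, and the coefficient of variation between libraries was 8.50% in sham and 19.5% in pMCAO.

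miR-125a-5p, which has the same seed, was steadier. It ranged in sham from 11690 to 13723 CPM with a median of 12618, and in pMCAO replicates 1 to 5 it was 9535, 10203, 10694, 13107 and 13129 CPM. Again 3 pMCAO libraries lay below the sham range and 2 within it. Its log2 fold change was -0.16 (SE 0.10, 95% interval -0.38 to 0.07, adjusted p = 0.415). Without both pMCAO libraries with fewer than 1000000 counts it was -0.0058 (SE 0.11). Its coefficient of variation over the sham libraries was 5.65%, the smallest of the members in that group.

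miR-351-5p, which carries the miR-125 seed and is encoded on another transcript, is named here for its seed. It averaged 30.1 CPM in sham and 47.8 CPM in pMCAO, and its log2 fold change of 0.65 (SE 0.25) had an adjusted p of 0.132 by edgeR. It was far less abundant than both miR-125 members and its value was on the other side of 0.

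miR-99a-5p, the main product of its family, ranged in sham from 3265 to 7098 CPM with a median of 6190. In pMCAO replicates 1 to 5 it was 6952, 5131, 7205, 5123 and 1287 CPM. A single pMCAO library, replicate 5, was below all the sham libraries, and the other 4 lay within or just above the sham range. This gave a log2 fold change of -0.15 (SE 0.33, 95% interval -0.86 to 0.55, adjusted p = 0.864). Without pMCAO replicate 5 it was 0.11 (SE 0.20), so its sign rested on that library. The sign also turned when all libraries were kept and scaled by total counts alone.

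miR-100-5p, which differs from miR-99a-5p at a single base, ranged in sham from 1249 to 1638 CPM with a median of 1420. In pMCAO replicates 1 to 5 it was 1470, 1328, 1705, 1317 and 796 CPM. The lowest library was again pMCAO replicate 5. Its log2 fold change was -0.12 (SE 0.16, 95% interval -0.47 to 0.23, adjusted p = 0.738), and without that library it was 0.03 (SE 0.12).

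miR-99b-5p ranged in sham from 516 to 2718 CPM with a median of 2265, and in pMCAO replicates 1 to 5 it was 2082, 2149, 1804, 1789 and 1764 CPM. Sham replicate 5, at 516 CPM from 709 counts, stood apart from the other 5 sham libraries, which lay between 2222 and 2718 CPM. Over all libraries the log2 fold change was -0.11 (SE 0.29, 95% interval -0.74 to 0.52, adjusted p = 0.913). Without sham replicate 5 it was -0.30 with an SE of 0.10 and an adjusted p of 0.0913 by edgeR. The call did not change.

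The 3p arms of Mir99b and Mir125a had fewer than 100 counts in each library and were less precise. miR-99b-3p ranged in sham from 37.1 to 52.0 CPM with a median of 42.9, and in pMCAO replicates 1 to 5 it was 61.9, 74.5, 53.6, 50.8 and 48.5 CPM. Here 3 pMCAO libraries lay above the sham range and 2 within it. The log2 fold change was 0.37 (SE 0.16, 95% interval 0.02 to 0.73), a level 29.4% higher, with an unadjusted p of 0.0407 and an adjusted p of 0.179 by edgeR. With 51 to 90 counts per library the counting error was 10.5% to 14.0%, close to the coefficient of variation of 14.1% in sham.

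miR-125a-3p ranged in sham from 25.5 to 43.1 CPM with a median of 37.7, and in pMCAO replicates 1 to 5 it was 48.4, 56.8, 45.6, 38.7 and 38.2 CPM. The pattern was like that of miR-99b-3p, with 3 pMCAO libraries above the sham range and 2 within it. Its log2 fold change was 0.35 (SE 0.18, 95% interval -0.04 to 0.74, adjusted p = 0.261). Counts of 35 to 75 per library gave a counting error of 11.5% to 16.9%. The 2 highest pMCAO values of both 3p products came from the 2 libraries with fewer than 1000000 counts, and without both libraries the log2 fold changes were 0.23 for miR-99b-3p and 0.23 for miR-125a-3p.

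**Figure D2:**
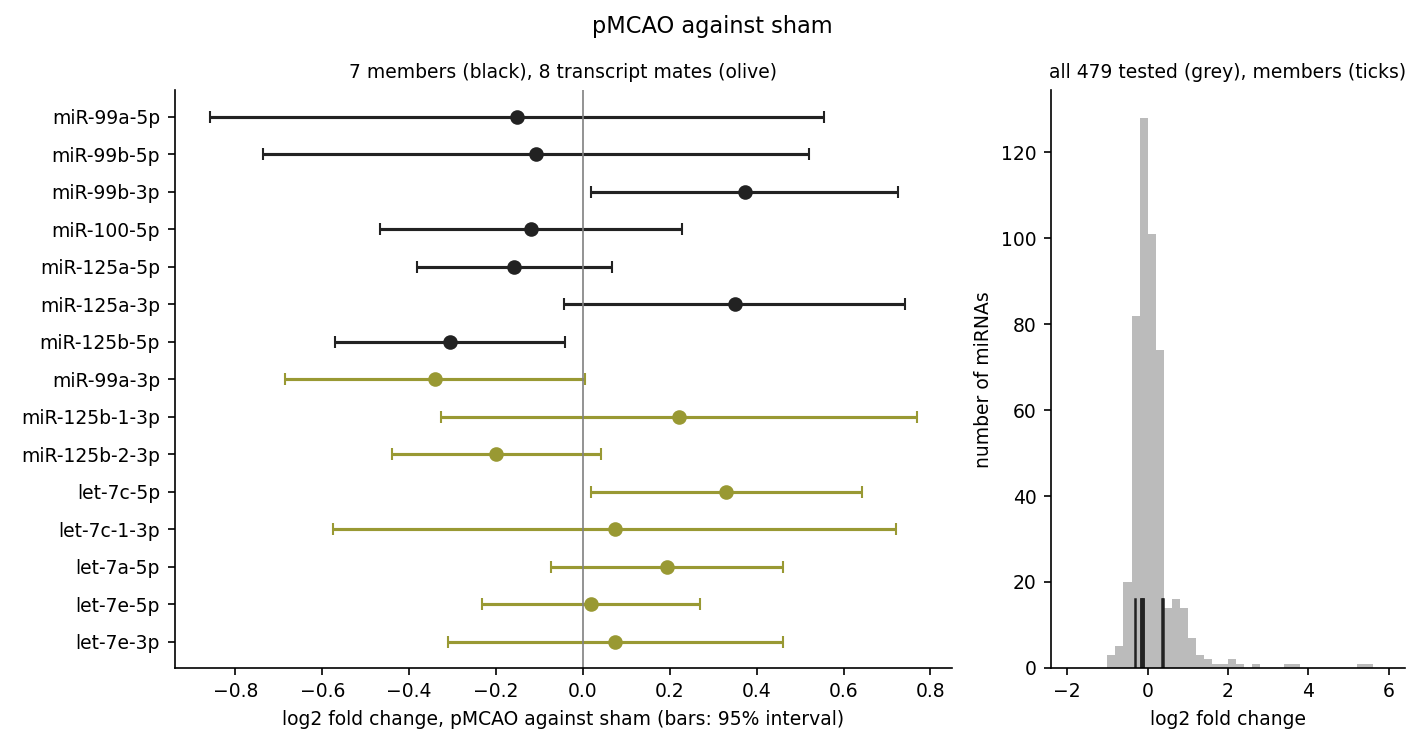
Left, log2 fold changes of pMCAO over sham with 95% intervals for the 7 members (black) and for the 8 tested products of the same transcripts (olive). Right, the number of miRNAs by log2 fold change for the 479 tested, with the members as ticks, which lie between -0.31 and 0.37.

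The other mature products of the 3 transcripts formed a list of 10, and 8 of them passed the filter on low counts. miR-100-3p and let-7a-2-3p, with at most 23 and 8 counts in a library, did not. None of the 8 passed the test by edgeR (0 higher and 0 lower), and 0 of the 9 that DESeq2 tested passed. At an unadjusted p under 0.05 there was 1 by edgeR, let-7c-5p, beside 24.4% of all miRNAs tested. By DESeq2 there were 2, let-7c-5p and miR-99a-3p, and the share over all miRNAs is not given here for that tool. The median log2 fold change of the 8 by edgeR was 0.07. When libraries were scaled by total counts alone, let-7c-5p and let-7a-5p passed as higher.

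On the chromosome 16 transcript, let-7c-5p averaged 7089 ± 1204 CPM over the 6 sham libraries (mean ± SD, as for all such values) and 8911 ± 1692 CPM over the 5 pMCAO libraries, a log2 fold change of 0.33 (SE 0.15) with an unadjusted p of 0.0397 and an adjusted p of 0.178 by edgeR. The 3p arm miR-99a-3p had medians of 166 and 115 CPM, a log2 fold change of -0.34 (SE 0.16, adjusted p = 0.210). The 3p arm of the second hairpin, miR-125b-2-3p, averaged 155 ± 14.8 and 135 ± 10.6 CPM, a log2 fold change of -0.20 (SE 0.11, adjusted p = 0.310). The scarce let-7c-1-3p was at 7.11 to 11.4 CPM in sham and 5.91 to 17.6 CPM in pMCAO, with a log2 fold change of 0.07 (SE 0.30). The products of this transcript were thus on both sides of 0, and none of them passed the test.

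On the chromosome 9 transcript, let-7a-5p averaged 7949 ± 1047 CPM in sham and 9088 ± 1376 CPM in pMCAO, a log2 fold change of 0.19 (SE 0.12, adjusted p = 0.406). miR-125b-1-3p, the arm that identifies the chromosome 9 copy of miR-125b, averaged 34.1 ± 6.91 and 40.3 ± 14.8 CPM, a log2 fold change of 0.22 (SE 0.26, adjusted p = 0.677). The 3p arms of the 2 miR-125b hairpins therefore had log2 fold changes of opposite sign. The interval of miR-125b-1-3p (-0.33 to 0.77) covered the value of miR-125b-2-3p, that of miR-125b-2-3p (-0.44 to 0.04) did not cover the value of miR-125b-1-3p, and the difference between them was not tested. On chromosome 17, let-7e-5p averaged 5441 ± 586 and 5513 ± 755 CPM, a log2 fold change of 0.02 (SE 0.12), and let-7e-3p had one of 0.07 (SE 0.18).

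Ratios of 2 products within a library do not depend on how libraries are scaled, and 11 were compared between the groups with two-sided exact permutation tests over the 462 arrangements of the libraries, where the smallest possible p is 0.00216. None passed after adjustment over the 11 ratios. At an unadjusted p under 0.05 there was 1. The groups overlapped for each of the 11 ratios, while they did not overlap for 6.29% of all pairs of tested miRNAs. The lowest p belonged to the arms of Mir125a. In sham the count of miR-125a-5p was 316 to 482 times that of miR-125a-3p, with a median of 332, and in pMCAO replicates 1 to 5 it was 195, 178, 232, 335 and 341 times that count. The mean log2 ratio was lower in pMCAO by a difference of -0.54 (SE 0.22, exact permutation p = 0.0346, adjusted p = 0.381), and 3 of 5 pMCAO libraries lay below the sham range.

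For the arms of Mir99b, the count of miR-99b-5p was 13.8 to 58.4 times that of miR-99b-3p in sham, with a median of 50.7, and 28.6 to 36.1 times in pMCAO. The difference of the mean log2 ratio was -0.32 (SE 0.33, exact permutation p = 0.448, adjusted p = 0.813). The lowest sham value was that of replicate 5. Without it the difference was -0.64 (exact permutation p = 0.00794, the smallest that 5 against 5 libraries can give, adjusted p = 0.0873). That library was singled out for its low value, so this p is given as a description alone.

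Among products with the same seed, the ratio of miR-125a-5p to miR-125b-5p was 0.253 to 0.321 in sham and 0.277 to 0.369 in pMCAO, a log2 difference of 0.16 (SE 0.09, exact permutation p = 0.115, adjusted p = 0.411). miR-99a-5p was 2.45 to 4.82 times miR-100-5p in sham and 1.62 to 4.73 times in pMCAO, a log2 difference of -0.17 (SE 0.31, adjusted p = 0.815 by the same exact permutation test). Against let-7 products of the same transcript, the difference was -0.65 (SE 0.44) for miR-99a-5p to let-7c-5p, -0.35 (SE 0.21) for miR-100-5p to let-7a-5p, -0.18 (SE 0.15) for miR-125a-5p to let-7e-5p and 0.04 (SE 0.42) for miR-99b-5p to let-7e-5p, with adjusted p-values from 0.411 to 0.985 by the same exact permutation tests. For miR-99b-5p the differences were 0.38 (SE 0.59) against miR-99a-5p, 0.21 (SE 0.38) against miR-100-5p and 0.23 (SE 0.39) against miR-125a-5p, all with SEs wider than the difference.

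**Figure D3:**
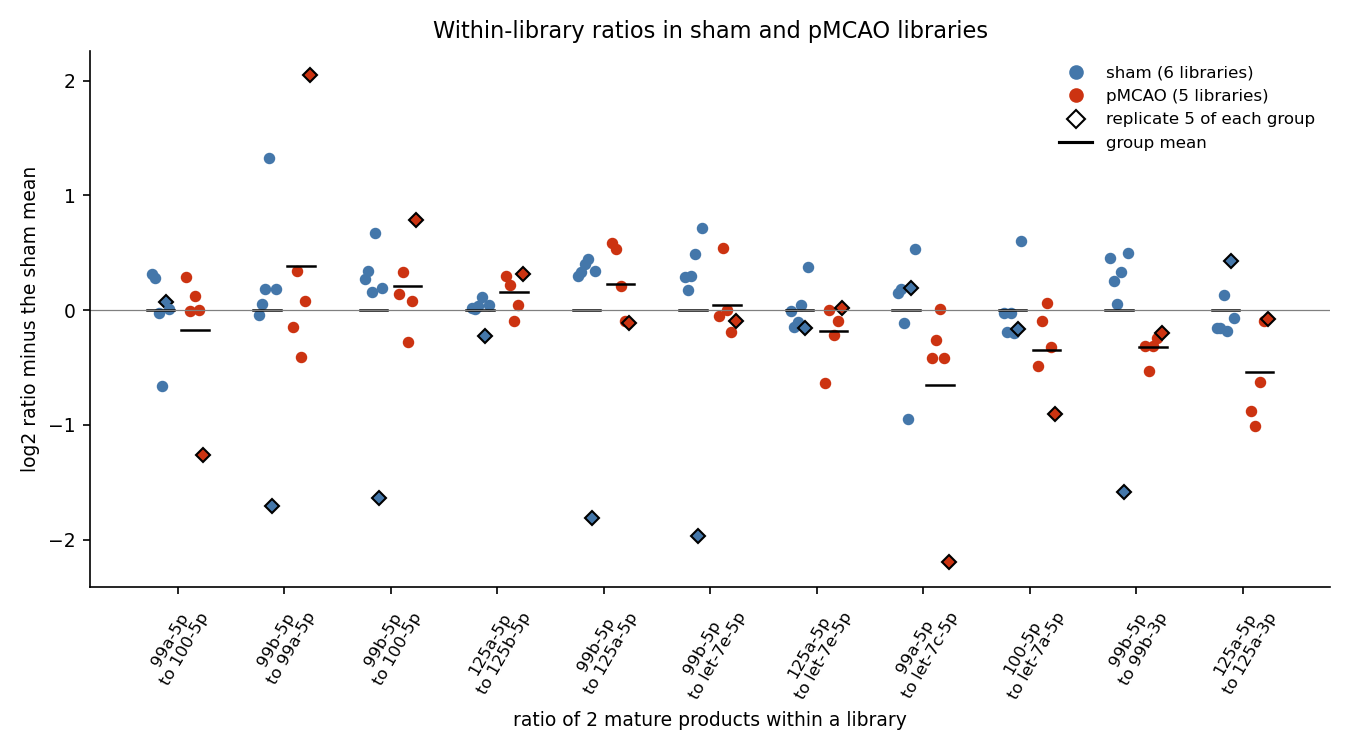
Log2 ratio of 2 products within each library minus the sham mean of that ratio, for 11 ratios, with sham in blue, pMCAO in red, replicate 5 of each group as diamonds and group means as bars. The 2 groups overlapped in each ratio, and the points farthest from 0 were those of replicate 5 of either group in ratios with miR-99a-5p or miR-99b-5p.

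The largest differences between libraries within a group concerned products of the same transcript that did not move to the same extent. In sham replicate 5 miR-99b-5p was at 516 CPM, whereas miR-125a-5p (12467 CPM) and let-7e-5p (5950 CPM) from within the same 692 bases were inside or above the range of the other sham libraries. Its partner arm miR-99b-3p was at 37.1 CPM in that library, the lowest of the sham values but close to the next, 39.9 CPM. miR-125a-3p, also of this transcript, was at 25.5 CPM from 35 counts there. This was the lowest of its sham values too, with the next at 29.4 CPM. In pMCAO replicate 5 miR-99a-5p was at 1287 CPM while its partner arm miR-99a-3p was at 115 CPM, the median of the group. let-7c-5p, of the same transcript, was at 7445 CPM there, against 7736 to 11707 CPM in the other 4 pMCAO libraries. The counts behind the low values were 709 for miR-99b-5p and 1989 for miR-99a-5p, which give counting errors of 3.76% and 2.24%.

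**Figure D4:**
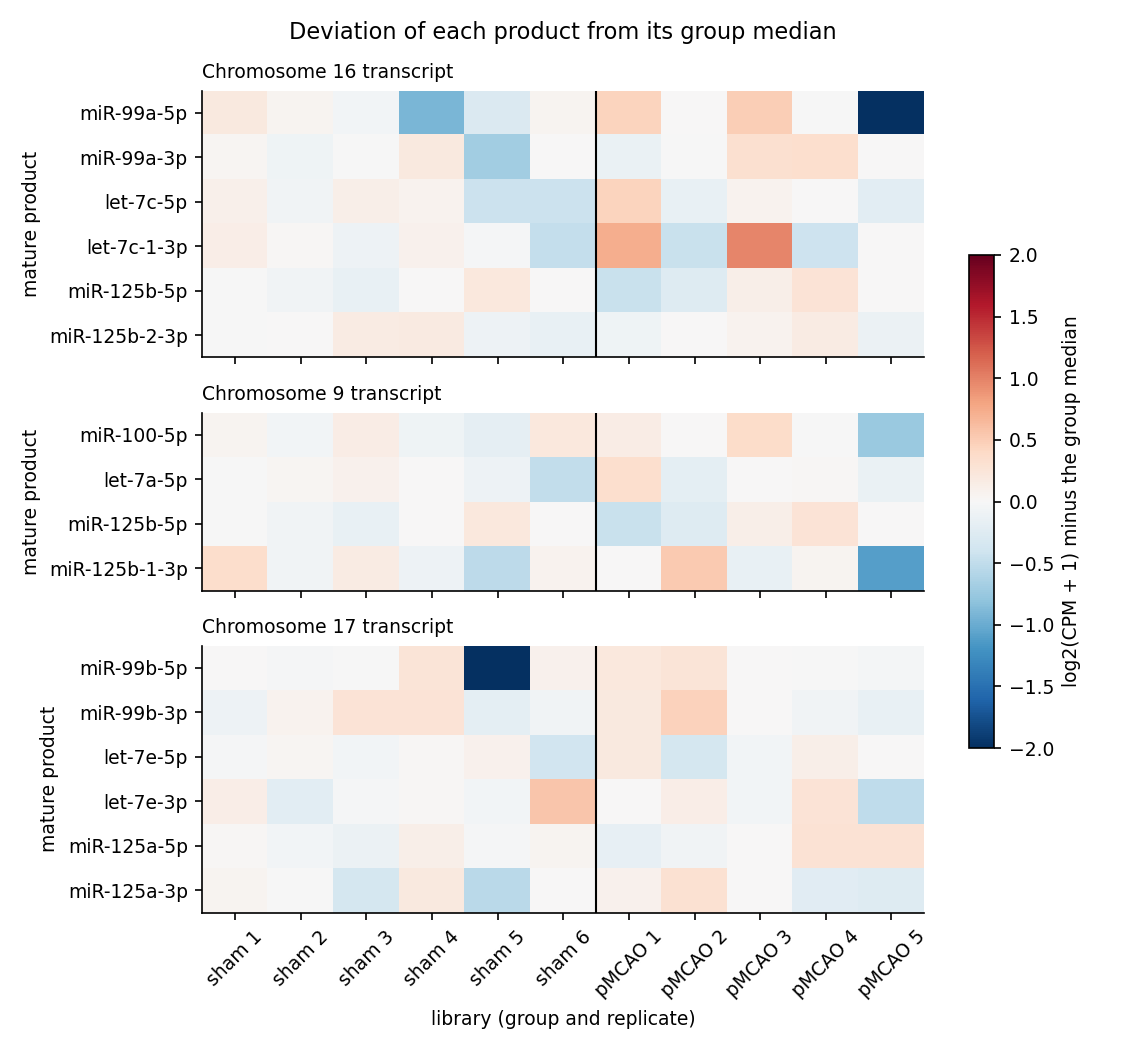
Log2(CPM + 1) of each product minus the median of its group, by library (columns) and by transcript (panels), in blue below and in red above the median, with the colours ending at 2 in either direction. The darkest cells are miR-99a-5p in pMCAO replicate 5 and miR-99b-5p in sham replicate 5. No other product of these transcripts was as far below its median in those libraries. The next lowest in sham replicate 5 were miR-99a-3p at -0.70 and miR-125a-3p at -0.55. In pMCAO replicate 5 they were miR-125b-1-3p at -1.11 and miR-100-5p at -0.74. miR-125b-5p is drawn in 2 panels since it comes from both loci.

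The miRNAs most like each member over the 11 libraries were taken as the 3 with the smallest SD of the log2 ratio to it, a description with no test, in which depth and library are shared by all points. For miR-99b-5p these were miR-324-5p (SD 0.214), miR-383-3p (0.238) and miR-186-5p (0.268), against a median SD of 0.727 over all miRNAs tested. A small SD of the ratio picks miRNAs that share the low library of the member. The low values given here and for miR-99a-5p below thus follow from the choice and are no separate finding. miR-324-5p was at 270 CPM in sham replicate 5 and at 836 to 1118 CPM in the other sham libraries, and miR-186-5p was at 230 CPM against 519 to 760 CPM. For miR-99a-5p they were miR-361-5p (SD 0.220), miR-434-5p (0.300) and miR-29c-3p (0.364), against a median of 0.815. miR-361-5p was at 123 CPM in pMCAO replicate 5 and at 438 to 640 CPM in the other pMCAO libraries, and miR-29c-3p was at 1774 CPM against 7764 to 12362 CPM. miR-99a-5p and miR-99b-5p, with the same seed, had an SD of 0.943 to each other.

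For miR-100-5p the 3 were miR-30a-3p (SD 0.174), miR-24-3p (0.182) and miR-676-3p (0.195), with a median of 0.443 over all miRNAs tested. For miR-125b-5p they were miR-181c-5p (0.0769), miR-151-5p (0.130) and miR-222-3p (0.135), with a median of 0.418. For miR-125a-5p they were miR-22-5p, miR-495-3p and miR-181a-5p (0.0932 to 0.108), with a median of 0.358. miR-125a-5p and miR-125b-5p had an SD of 0.162 to each other, and miR-99b-3p and miR-125a-3p one of 0.212.

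Sham replicate 5 and pMCAO replicate 5 also stood apart for other miRNAs. In sham replicate 5, 15 of 247 miRNAs above 100 CPM lay more than 1 on the log2 scale below the median of the other sham libraries, and in pMCAO replicate 5 these were 11 of 253. In the other 9 libraries the number was 0 to 6. With both libraries left out together, none of the members passed the test, and the log2 fold changes were 0.06 for miR-99a-5p, -0.28 for miR-99b-5p, -0.02 for miR-100-5p, -0.22 for miR-125a-5p and -0.28 for miR-125b-5p.

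**Figure D5:**
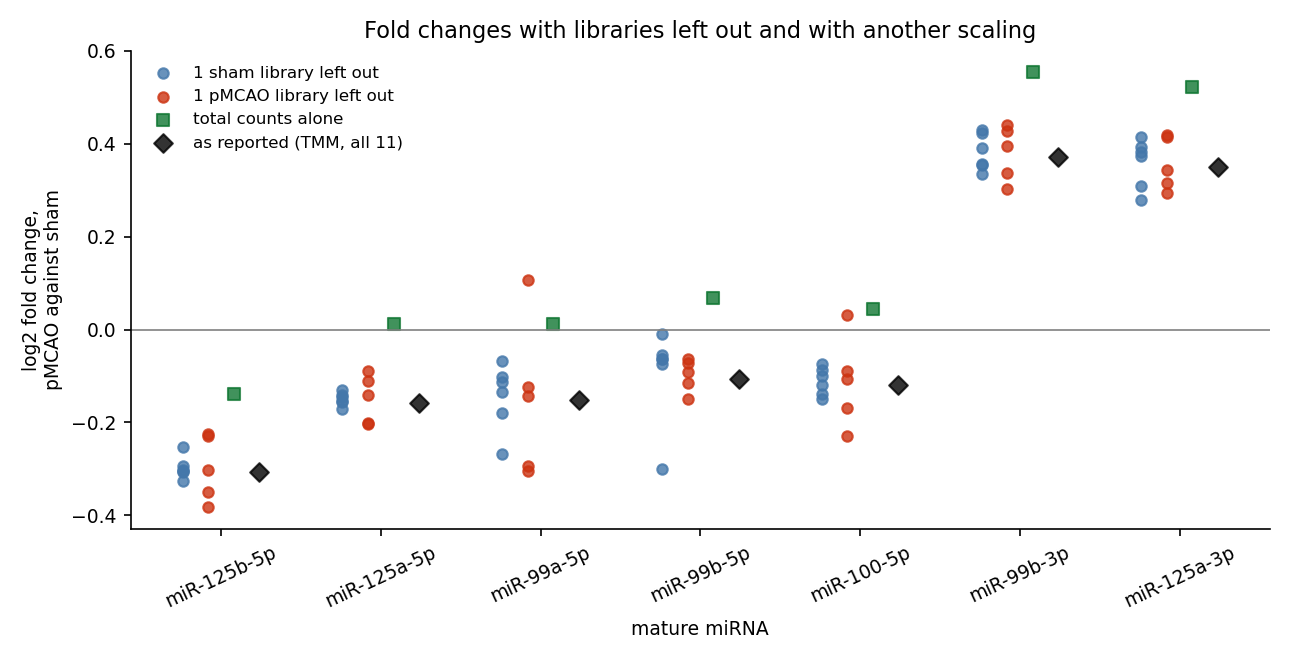
Log2 fold change of each member as reported (black diamonds), with each sham library (blue) or pMCAO library (red) left out in turn, and with scaling by total counts alone (green squares). miR-125b-5p was below 0 and both 3p products were above 0 in all of these fits, and the sign of miR-99a-5p and miR-100-5p turned without pMCAO replicate 5. With total counts alone, 4 of the 5p products lay just above 0.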

How the data were processed

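Small RNA from the brain of 6 sham and 5 pMCAO mice was sequenced on the Ion Torrent S5. The authors removed adapters with the Torrent Suite, ran FastQC, filtered for a read length between 20 and 30 bp, aligned to mm10 by Bowtie, used HTSeq and miRBase v21 for counting, and deposited raw counts per mature miRNA for each library. Parameters of the aligner and counter are not given in the sources used here. No molecular identifiers were used, so counting errors cover counting alone.

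Counts were tested with edgeR 4.0.16 (R 4.3.3): filterByExpr (minimum count 10, minimum total 15), TMM scaling, quasi-likelihood test of pMCAO against sham over the 11 libraries, with no covariate. DESeq2 1.42.0, the tool the authors name, was an alternative, as were other scalings and filters, a replicate block, thinning and leaving out libraries. Ratios used counts plus 0.5, or 1 as an alternative, and exact permutation tests (Python 3.11.15). The scripts were tested on simulated data. There edgeR called 28 of 68 changes of 0.5 on the log2 scale (41.2%), 51 of 61 changes of 1 and 67 of 67 changes of 2. It made 5 false calls, with 481 miRNAs tested. Changes of the size estimated for the members can thus be missed. All 17 names of members and transcript mates matched RefSeq entries. The members and lists were chosen with earlier results of these data known. The text names the members, their transcript mates, listed cell type markers and, for each 5p member, the 3 miRNAs with the steadiest ratio to it. miR-351-5p, miR-6367 and miR-6394 are named outside these lists, for their seed. P-values measure the spread between these libraries, 1 per mouse as far as the labels tell.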

Additional observations from a re-analysis of the deposited data

Results flagged for a closer look

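Of the 56 groups of values checked, 15 had a library whose gap to its nearest neighbour took an unusually large part of the whole range of the group (Dixon's 95% limit), where chance gives 2.8. Many of them share a numerator, a denominator or a library, so they are not 15 separate events. For levels, on the log2(CPM + 1) scale, miR-99a-5p was at 10.33 in pMCAO replicate 5 against 12.32 to 12.81 in the other pMCAO libraries. miR-99b-5p was at 9.02 in sham replicate 5 against 11.12 to 11.41, and miR-99a-3p was at 6.69 in the same library against 7.30 to 7.58. let-7a-5p and let-7e-5p were lowest in sham replicate 6, at 12.54 against 12.92 to 13.10 and at 12.08 against 12.40 to 12.54.

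For log2 ratios within a library, those with miR-99b-5p in sham replicate 5 were low: -1.27 to miR-100-5p (the others 0.52 to 1.03), -4.59 to miR-125a-5p (the others -2.49 to -2.34), -3.53 to let-7e-5p (the others -1.38 to -0.84) and 3.78 to miR-99b-3p (the others 5.43 to 5.87). In the same library miR-125a-5p to miR-125b-5p was -1.98 (the others -1.74 to -1.64). Ratios with miR-99a-5p were low in pMCAO replicate 5, at 0.69 to miR-100-5p (the others 1.95 to 2.24) and -2.53 to let-7c-5p (the others -0.75 to -0.33), and in sham replicate 4, at 1.30 to miR-100-5p (the others 1.93 to 2.27). Ratios were high for miR-99b-5p to let-7e-5p in pMCAO replicate 2, at -1.02 (the others -1.75 to -1.56), and for miR-100-5p to let-7a-5p in sham replicate 6, at -1.86 (the others -2.66 to -2.48).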

How the results depend on the processing

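None of the 7 members passed the test under any of the 22 alternatives, and the lowest adjusted p-values were 0.0581 for miR-99b-3p, 0.0834 for miR-125b-5p and 0.0913 for miR-99b-5p. The signs of miR-125b-5p, miR-99b-3p and miR-125a-3p did not turn in any of them. With total counts alone the log2 fold change was 0.0121 for miR-99a-5p, 0.0681 for miR-99b-5p, 0.0452 for miR-100-5p and 0.0128 for miR-125a-5p, and 2 transcript mates passed as higher, let-7c-5p (0.50, adjusted p = 0.0284) and let-7a-5p (0.37, adjusted p = 0.0424), by edgeR. Without 1 library in turn, the values ran from -0.30 to 0.11 for miR-99a-5p, -0.23 to 0.0305 for miR-100-5p, -0.21 to 0.24 for let-7c-1-3p, -0.0451 to 0.12 for let-7e-5p and -0.00017 to 0.20 for let-7e-3p. The ratios that turned sign ran from -0.30 to 0.10 (miR-99a-5p to miR-100-5p), -0.0343 to 0.65 (miR-99b-5p to miR-99a-5p), -0.11 to 0.35 (miR-99b-5p to miR-100-5p), -0.14 to 0.31 (miR-99b-5p to miR-125a-5p) and -0.35 to 0.18 (miR-99b-5p to let-7e-5p). Without a filter let-7e-5p was at -0.0130. Over all miRNAs, 43 were higher and 1 lower with total counts alone, 4 were lower with upper-quartile scaling, 8 without a filter, 3 with at least 10 counts in every library and 3 after thinning to the smallest total. Without 1 library in turn, 13 to 27 were higher and 2 to 13 lower. Of alternatives chosen after seeing the data, leaving out both pMCAO libraries with under 1000000 counts gave 12 higher, 2 lower and -0.0157 for miR-125b-1-3p, and leaving out replicate 5 of both groups gave 16 higher, 5 lower and 0.0605 for miR-99a-5p. The cause of these shifts was not tested. Same-numbered libraries had correlated deviations of -0.0701 to 0.230, above 0.1 in 3 of 5 pairs, and 1 of 5 pMCAO libraries, replicate 5, was closest to the sham library of its own number. The numbers were not taken to pair the samples, since not every pair was above 0.1. With the replicate block 17 were higher and 2 lower, none of the members passed, and miR-99b-5p was at 0.11, let-7c-1-3p at -0.0686 and let-7e-5p at -0.0462. Ratios tested in 5 pairs cannot go below an exact p of 0.0625. Depth limited the 3p arms most, with 35 to 90 counts per library for both 3p members.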
